A study of Bos taurus with 2 samples.

Results

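Basement membranes are thin sheets of matrix that separate an epithelium from what lies under it. Laminin trimers bind cell surface receptors and polymerise first, type IV collagen forms a second network, and nidogens and perlecan link the networks. In mammalian blastocysts the primitive endoderm (hypoblast) is a known source of these proteins, and the trophectoderm lays one down on its inner face. The 9 genes described here encode laminin chains (LAMA1, LAMB1), type IV collagen chains (COL4A1, COL4A2), nidogens (NID1, NID2), the collagen chaperone SPARC, fibronectin (FN1) and the chain of collagen XVIII (COL18A1). They were taken as a list of symbols, and all 9 were found among the 35643 features that both libraries list.

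The series holds 2 single-nucleus RNA libraries from cattle, both labelled wild type. One came from frozen day 8 blastocysts. The other came from frozen blastoids, which are blastocyst-like structures assembled in microwells from 8 bovine expanded potential stem cells (bEPSC), 8 extraembryonic endoderm cells (bXEN) and 16 trophoblast stem cells (bTSC) each. The blastoids were grown in ACL medium with LIF at 20 ng/ml, ActivinA at 10 ng/ml, Chir99021 and the CEPT cocktail, from lines kept with feeder fibroblasts (iMEF) that were depleted before assembly. The labels do not give how many embryos or blastoids were pooled, nor the age of the blastoids. With 1 library a group there is no replicate check and no p-value: every interval below is a 95% interval that covers counting error only, and every difference is one between these libraries or between nuclei of one library.

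After filtering, the blastocyst library kept 827 nuclei with 6861558 UMIs (counted molecules) and a median of 7661 UMIs each. The blastoid library kept 1914 barcodes with 7481886 UMIs and a median of 2008 (1 barcode sequence occurred in both libraries). Levels are UMIs of a gene in summed nuclei, scaled to a common total (CPM). Clusters were made without the 9 genes. The blastocyst gave a hypoblast-like cluster of 389 nuclei, a trophectoderm-like cluster of 236, an epiblast-like cluster of 73 and a shallow cluster of 129 with a median of 2033 UMIs. The hypoblast-like cluster had 7 hypoblast markers above the other clusters (GATA4, GATA6, HNF4A and PDGFRA among them) but also 4 epiblast markers (SOX2 among them), and AFP, TTR and APOB were at 0 UMIs in it. The blastoid gave a trophectoderm-like cluster of 154 (6 trophectoderm and 4 epiblast markers), an unnamed cluster of 141 led by LMX1A, DCC and AUTS2, and a ribosomal-rich cluster of 1619 barcodes with a median of 1922 UMIs, of which 15.7% were from ribosomal protein genes. The ribosomal-rich cluster had 11 trophectoderm and 7 hypoblast markers (AFP, TTR and APOB among them) above the other blastoid clusters, and the shallow blastocyst cluster had 6 trophectoderm markers.

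Most of the 9 genes were at a lower level in the blastoid library. FN1, NID1, COL4A1, COL4A2, NID2 and LAMB1 were over 2-fold lower, SPARC was over 2-fold higher, and LAMA1 and COL18A1 stayed within 2-fold. That is 6 lower and 1 higher of 9, with a median log2 ratio of -1.22, against 18.0% lower and 21.0% higher of 11942 genes tested (those whose UMIs in the 2 sums reach 100), whose median was -0.14. Scaled so that the median ratio of the 7828 genes with at least 100 UMIs in each library is 1, which takes out a shift of -0.25 on the log2 scale, NID1, FN1 and COL4A1 remained over 2-fold lower and SPARC over 2-fold higher, and COL4A2, LAMB1 and NID2 had log2 ratios of -0.97, -0.86 and -0.99. FN1 alone made up 68.9% of the summed UMIs of the 9 genes in the blastocyst and 33.4% in the blastoid.

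Within the blastocyst the genes fell into opposite patterns. In the hypoblast-like cluster 6 of 9 were over 2-fold higher than in the trophectoderm-like cluster and 2 were over 2-fold lower. Their median log2 ratio was 3.35. Of 8058 genes tested, 13.1% were higher and 11.6% lower. The higher genes were both type IV collagen chains, NID1, FN1, COL18A1 and SPARC. The lower genes were LAMA1 and NID2, and LAMB1 stayed within 2-fold.

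**Figure D1:**
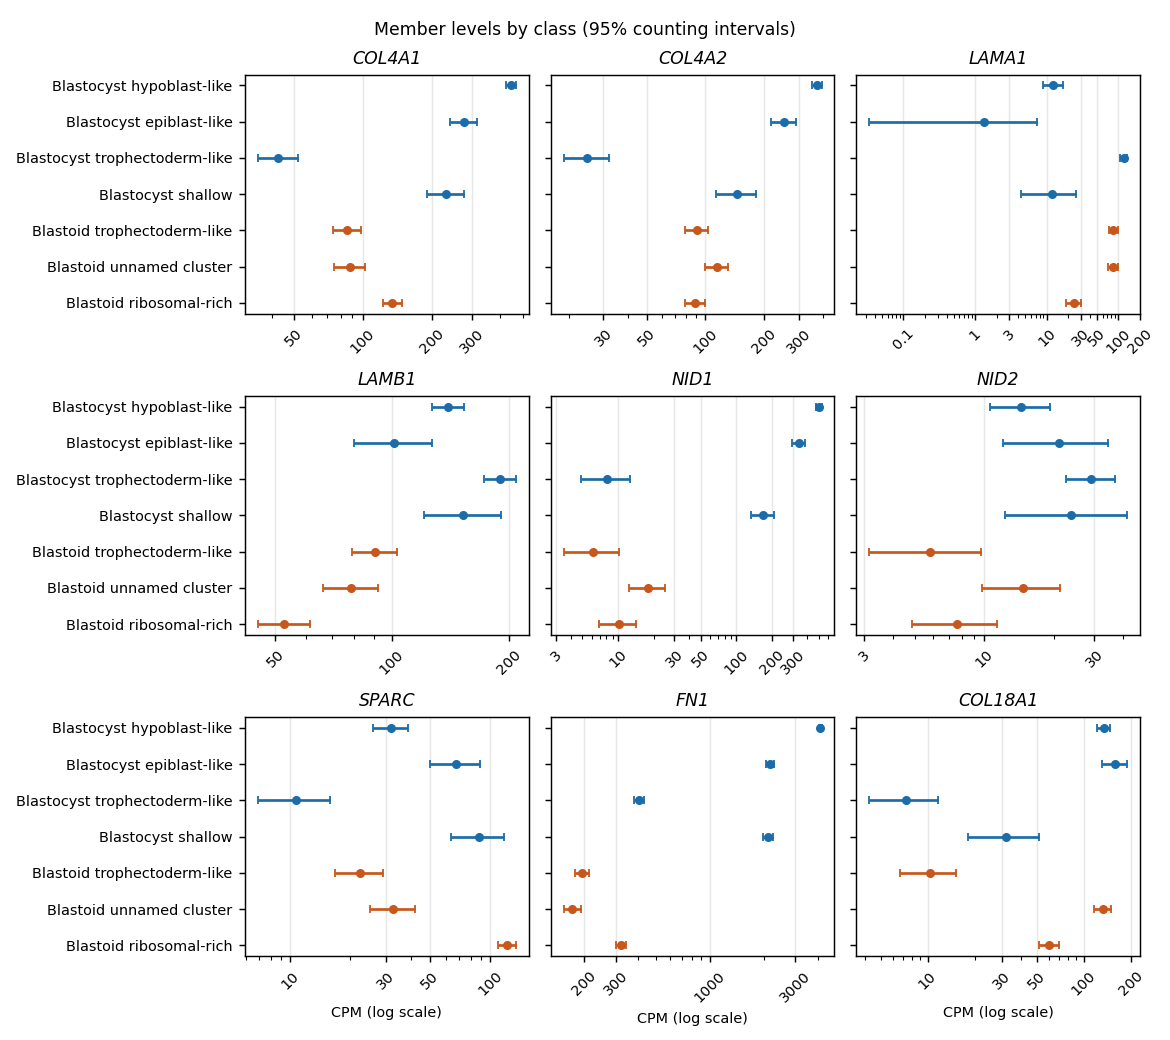
Each panel shows the level of 1 gene in CPM (log axis, its own range in each panel) in the 4 blastocyst clusters (blue) and 3 blastoid clusters (orange), with 95% Poisson intervals. NID1 reached 501 CPM in the hypoblast-like cluster and at most 17.9 CPM in any blastoid cluster, while LAMA1 was highest in the blastocyst's trophectoderm-like cluster, at 118 CPM.

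LAMA1 encodes the alpha-1 chain of laminin-111, the main laminin of early embryos. Its level was 118 CPM (104 to 133) in the blastocyst's trophectoderm-like cluster, against 12.3 CPM (8.78 to 16.7) in the hypoblast-like cluster, 11.9 CPM in the shallow cluster and 1 UMI in the epiblast-like cluster. It was thus 9.59-fold lower (6.87 to 13.7) in the hypoblast-like than in the trophectoderm-like cluster. In the blastoid, LAMA1 stood at 84.7 CPM (73.5 to 97.2) in the trophectoderm-like and 84.2 CPM (71.7 to 98.3) in the unnamed cluster, a ratio of 0.994 (0.803 to 1.23). The ribosomal-rich barcodes had 23.7 CPM, 3.57-fold lower (2.77 to 4.63) than the other 2 blastoid clusters together. Between the trophectoderm-like clusters the blastoid's LAMA1 was at 0.719 times (0.597 to 0.865) the blastocyst's.

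LAMB1, the beta-1 chain that pairs with LAMA1, did not follow it. In the blastocyst its levels were 190 CPM (173 to 209) in the trophectoderm-like, 153 CPM in the shallow, 140 CPM (127 to 153) in the hypoblast-like and 101 CPM (80.0 to 127) in the epiblast-like cluster. The hypoblast-like level was 0.734 times (0.643 to 0.838) the trophectoderm-like level, where that of LAMA1 was 0.104 times. In the blastoid LAMB1 was lower, at 90.5 CPM (78.9 to 103) in the trophectoderm-like, 78.4 CPM in the unnamed and 52.8 CPM in the ribosomal-rich cluster. Between the trophectoderm-like clusters it was 2.10-fold lower (1.79 to 2.48) in the blastoid.

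LAMC1, the gamma chain of laminin-111, was at 70.0 CPM (61.2 to 79.7) in the hypoblast-like and 86.2 CPM (74.8 to 99.0) in the trophectoderm-like cluster of the blastocyst. In the blastoid it was at 52.5 CPM in the trophectoderm-like and 57.4 CPM in the unnamed cluster. Of the other 9 laminin chains listed, LAMC1 included, 3 had enough UMIs to compare the blastocyst's hypoblast-like and trophectoderm-like clusters, and none of them passed 2-fold. LAMA5, an alpha chain of many adult basement membranes, had 60.8 CPM (52.6 to 69.9) in the hypoblast-like and 33.3 CPM (26.3 to 41.6) in the trophectoderm-like cluster.

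COL4A1 and COL4A2 together form the type IV collagen trimer found in nearly all basement membranes. COL4A1 was at 444 CPM (421 to 467) in the hypoblast-like, 277 CPM (240 to 317) in the epiblast-like, 230 CPM (190 to 276) in the shallow and 42.7 CPM (34.7 to 51.9) in the trophectoderm-like cluster of the blastocyst. COL4A2 kept the same order, with 371 CPM (350 to 392), 252 CPM (217 to 290), 145 CPM (114 to 182) and 24.8 CPM (18.8 to 32.0). The hypoblast-like cluster was 10.4-fold (8.48 to 12.9) above the trophectoderm-like cluster for COL4A1 and 15.0-fold (11.5 to 19.9) for COL4A2; the epiblast-like and shallow intervals of COL4A1 overlapped.

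In the blastoid the collagen pair showed no such contrast between clusters. COL4A1 was at 85.6 CPM (74.3 to 98.1) in the trophectoderm-like and 87.9 CPM (75.1 to 102) in the unnamed cluster, a ratio of 1.03 (0.833 to 1.27), and at 135 CPM (122 to 148) in the ribosomal-rich cluster. COL4A2 was at 90.5, 115 and 88.5 CPM in the same order. All of these lay between the levels of the blastocyst's trophectoderm-like and shallow clusters. The blastoid's trophectoderm-like cluster exceeded the blastocyst's 2.00-fold (1.57 to 2.57) for COL4A1 and 3.66-fold (2.73 to 4.97) for COL4A2.

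A different pair of type IV collagen chains stood out in the blastoid's unnamed cluster. COL4A5 was at 300 CPM (275 to 325) there against 29.8 CPM in the blastoid's trophectoderm-like cluster and 10.6 CPM in the whole blastocyst library. COL4A6, its neighbour and partner chain, was at 224 CPM (203 to 246) against 6.61 CPM and 1.75 CPM. COL4A6 was 33.8-fold higher (20.6 to 59.7) and COL4A5 10.1-fold higher (7.87 to 13.1) in the unnamed than in the trophectoderm-like cluster, while the ratios of COL4A1 and COL4A2 were 1.03 and 1.27. In the blastocyst's hypoblast-like cluster COL4A5 had 33 UMIs and COL4A6 had 4.

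**Figure D2:**
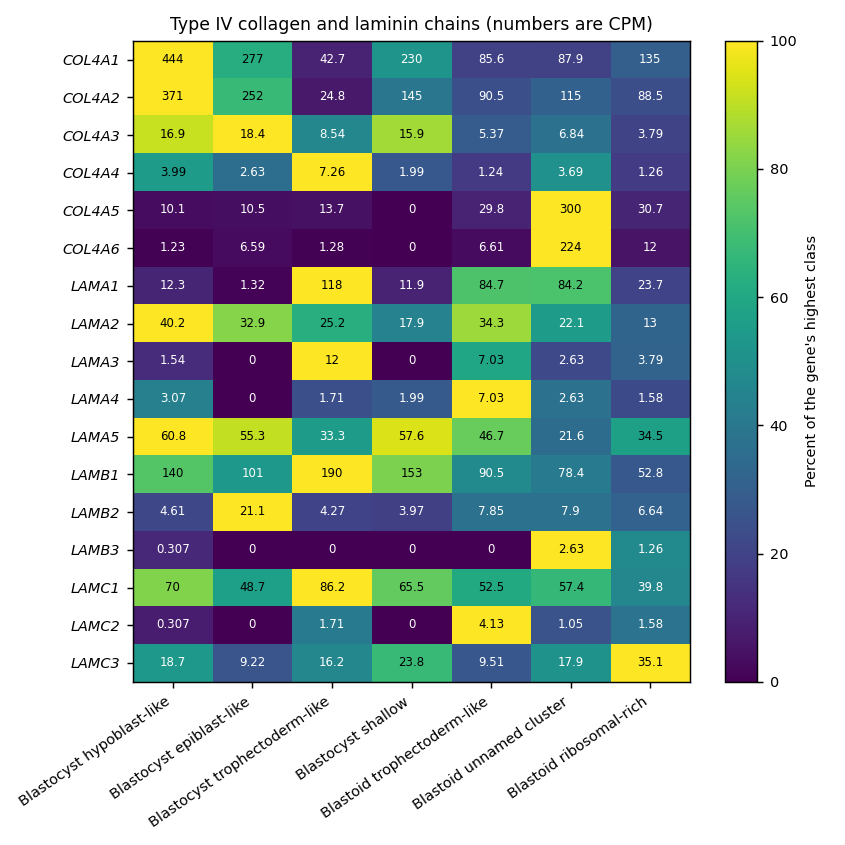
Rows are the type IV collagen and laminin chains, columns the 7 clusters; numbers are CPM and colour gives each cell as a percent of that gene's own highest cluster, so colours compare clusters within a row only. COL4A1 and COL4A2 peak in the hypoblast-like cluster, at 444 and 371 CPM, and COL4A5 and COL4A6 in the blastoid's unnamed cluster, at 300 and 224 CPM.

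NID1, which bridges laminin and type IV collagen, had the largest ratio of the 9 genes between the hypoblast-like and trophectoderm-like clusters of the blastocyst. It was at 501 CPM (477 to 526) in the hypoblast-like, 337 CPM (297 to 381) in the epiblast-like, 167 CPM (133 to 207) in the shallow and 8.11 CPM (4.88 to 12.7) in the trophectoderm-like cluster, with no overlap between neighbours in that order. The hypoblast-like level was 61.8-fold (39.4 to 103) the trophectoderm-like level, a log2 ratio of 5.95 that ran from 5.33 with the marker gate to 6.89 with at least 4000 UMIs. In the blastoid, NID1 was low in every cluster, at 17.9 CPM (12.4 to 25.0) in the unnamed, 10.1 CPM (6.92 to 14.3) in the ribosomal-rich and 6.20 CPM (3.47 to 10.2) in the trophectoderm-like cluster. Over the whole libraries it was 26.8-fold lower (21.4 to 33.9) in the blastoid, with 81 UMIs against 1990.

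NID2, the second nidogen, did not share that pattern. In the blastocyst it was at 29.0 CPM (22.5 to 36.8) in the trophectoderm-like, 23.8 CPM in the shallow, 21.1 CPM in the epiblast-like and 14.4 CPM (10.6 to 19.2) in the hypoblast-like cluster. The hypoblast-like level was 2.01-fold lower (1.37 to 2.98) than the trophectoderm-like level, which sits at the 2-fold limit: its log2 ratio ran from -1.62 to -0.81 over the settings tried. Between the trophectoderm-like clusters NID2 was 5.02-fold lower (2.79 to 9.66) in the blastoid, on 14 against 68 UMIs, too few for the count of called genes.

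FN1 encodes fibronectin, a ligand of integrins that assembles at cell surfaces and beside basement membranes. Its level was 4135 CPM (4066 to 4206) in the hypoblast-like, 2168 CPM (2064 to 2275) in the epiblast-like, 2113 CPM (1988 to 2244) in the shallow and 404 CPM (379 to 431) in the trophectoderm-like cluster. The hypoblast-like and trophectoderm-like clusters thus differed 10.2-fold (9.58 to 10.9), and the epiblast-like and shallow levels overlapped. In the blastoid FN1 was at 320 CPM (300 to 340) in the ribosomal-rich, 195 CPM (178 to 213) in the trophectoderm-like and 172 CPM (154 to 191) in the unnamed cluster. Over the whole libraries FN1 was 10.3-fold lower (9.84 to 10.8) in the blastoid.

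Free RNA from lysed nuclei can put UMIs of an abundant gene into every barcode, so the trophectoderm-like level of each hypoblast-high gene was set against that of NID1, the lowest. NID1 in the trophectoderm-like cluster was at 1.62% of its hypoblast-like level. FN1 was at 9.78%, 6.04 times the value of NID1, COL4A1 at 9.62%, COL4A2 at 6.67% and COL18A1 at 5.37%. SPARC was at 33.4%, 20.6 times the value of NID1. The part of free RNA in these levels was not tested.

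COL18A1 encodes the core of collagen XVIII, a heparan sulfate proteoglycan of basement membranes. It was at 159 CPM (132 to 190) in the epiblast-like and 135 CPM (123 to 148) in the hypoblast-like cluster, with overlapping intervals, and at 31.8 CPM in the shallow and 7.26 CPM (4.23 to 11.6) in the trophectoderm-like cluster. In the blastoid it was at 133 CPM (117 to 150) in the unnamed and 10.3 CPM (6.69 to 15.3) in the trophectoderm-like cluster, a 12.8-fold difference (8.50 to 20.2). COL18A1 was the only 1 of 7 members with at least 100 UMIs to pass 2-fold there, none was lower, and their median log2 ratio was 0.04; of 7461 genes tested, 15.7% were higher and 16.3% lower. The nidogens, with too few UMIs for a call, were also higher in the unnamed cluster, NID1 at 2.89 times (1.53 to 5.70) on 34 against 15 UMIs and NID2 at 2.55 times (1.30 to 5.23) on 28 against 14. In the unnamed cluster 1 barcode held 9 of the 28 NID2 UMIs. Without the 13 hypoblast-gated barcodes described further on, of which it is 1, the ratio was 1.89 (0.888 to 4.17) for NID2 and 2.25 (1.15 to 4.56) for NID1.

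SPARC, a chaperone and matrix binding protein of type IV collagen, was the member over 2-fold higher in the blastoid library. In the blastocyst it was at 87.4 CPM (63.5 to 117) in the shallow and 67.2 CPM (50.0 to 88.3) in the epiblast-like cluster, which overlapped, then at 31.9 CPM (26.1 to 38.7) in the hypoblast-like and 10.7 CPM (6.91 to 15.8) in the trophectoderm-like cluster. In the blastoid it was at 121 CPM (109 to 134) in the ribosomal-rich, 32.6 CPM (25.0 to 41.8) in the unnamed and 22.3 CPM (16.8 to 29.1) in the trophectoderm-like cluster. The ribosomal-rich level was 4.52-fold (3.66 to 5.61) that of the other 2 blastoid clusters together.

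SPARC was therefore highest in the shallowest cluster of each library, and its 2.05-fold higher level (1.75 to 2.41) in the blastoid as a whole depended on those barcodes. Among barcodes with at least 4000 UMIs, where no ribosomal-rich cluster formed, its log2 ratio was -0.18. The fibroblast and trophectoderm marker lists also summed highest in these clusters, whereas the epiblast, hypoblast, neural and endothelial lists summed highest in another cluster of each library (neural genes at 123 CPM in the shallow and 177 CPM in the hypoblast-like cluster, and at 678 CPM in the ribosomal-rich and 1859 CPM in the unnamed cluster). The mesoderm list was highest in the ribosomal-rich cluster but not in the shallow one. The 10 fibroblast genes listed summed to 91.3 CPM in the shallow cluster of the blastocyst, with COL3A1, THY1, TWIST2 and PDGFRB at 0. In the other blastocyst clusters their order was not that of SPARC, with 27.3 CPM in the trophectoderm-like, 19.8 CPM in the epiblast-like and 12.3 CPM in the hypoblast-like cluster. In the blastoid the sum was 53.1 CPM in the ribosomal-rich and 26.3 to 26.5 CPM in the other clusters. The 20 trophectoderm markers summed to 6696 CPM in the shallow cluster and 386 to 2891 CPM in the other blastocyst clusters, and to 12673 CPM in the ribosomal-rich and 2037 to 4011 CPM in the other blastoid clusters. The part of such cells or of depth in the SPARC values was not tested.

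In the ribosomal-rich barcodes, 7 members had at least 100 UMIs in the comparison with the other blastoid clusters. SPARC was higher, LAMA1 was lower and 5 passed in neither direction, with a median log2 ratio of -0.09, where 21.1% of 9557 genes were higher and 43.7% lower. The median ratio of genes well counted in both sums was shifted by -0.15 on the log2 scale, and the counts were 1 higher and 1 lower with that shift taken out. Of 11 collagen folding and crosslinking genes tested there, 4 were higher and 1 was lower, with a median log2 ratio of 0.69. SERPINH1, the collagen chaperone HSP47, was at 185 CPM (170 to 200) there against 21.5 CPM in the trophectoderm-like and 50.0 CPM in the unnamed cluster, and at 3.79 CPM in the whole blastocyst library.

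Few of these genes passed 2-fold between the epiblast-like and hypoblast-like clusters of the blastocyst. Of 7 members with at least 100 UMIs, SPARC was 2.10-fold higher (1.47 to 2.97) and the other 6 stayed within 2-fold. The median log2 ratio of the 7 was -0.56, where that of 6801 genes was -0.09, with 2.88% higher and 3.1% lower. COL4A1, COL4A2, LAMB1, NID1 and FN1 were lower in the epiblast-like cluster by under 2-fold, with CPM intervals that did not overlap. FN1 came nearest the limit, 1.91-fold lower (1.81 to 2.01). Hypoblast markers summed to 1993 CPM in the epiblast-like cluster and 2742 CPM in the hypoblast-like cluster (16 and 18 of 24 genes with a UMI, with FOXA1, AFP, TTR, APOB and CER1 at 0 in both), and epiblast markers to 1927 and 1580 CPM. The hypoblast list summed higher still, to 3863 CPM, in the blastocyst's trophectoderm-like cluster, and to 4136 CPM in the blastoid's. This sum therefore does not by itself mark the hypoblast-like cluster. The border between the epiblast-like and hypoblast-like clusters moved with the settings, and the part of nuclei on the wrong side of it was not tested.

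Between the trophectoderm-like clusters of the libraries, 5 members had at least 100 UMIs. COL4A1 and COL4A2 were over 2-fold higher in the blastoid, LAMB1 and FN1 over 2-fold lower, and LAMA1 passed in neither direction, with a median log2 ratio of -0.48; of 7421 genes, 13.5% were higher and 11.6% lower. SPARC, with 54 against 25 UMIs, was at 2.09 times (1.28 to 3.51), and NID1 and COL18A1 had ratios of 0.764 (0.362 to 1.59) and 1.42 (0.739 to 2.81). The COL18A1 ratio depended on how the clusters were drawn: with trophectoderm barcodes picked by the marker gate instead, it was at 31.4 CPM (25.4 to 38.3) on 96 UMIs against 6.83 CPM (3.90 to 11.1) on 16, a log2 ratio of 2.20. COL4A1 and FN1 were not past 2-fold under every setting tried, with log2 ratios of 0.91 to 1.21 and of -2.63 to -0.94, while COL4A2 (1.65 to 1.98) and LAMB1 (-1.24 to -1.03) were.

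**Figure D3:**
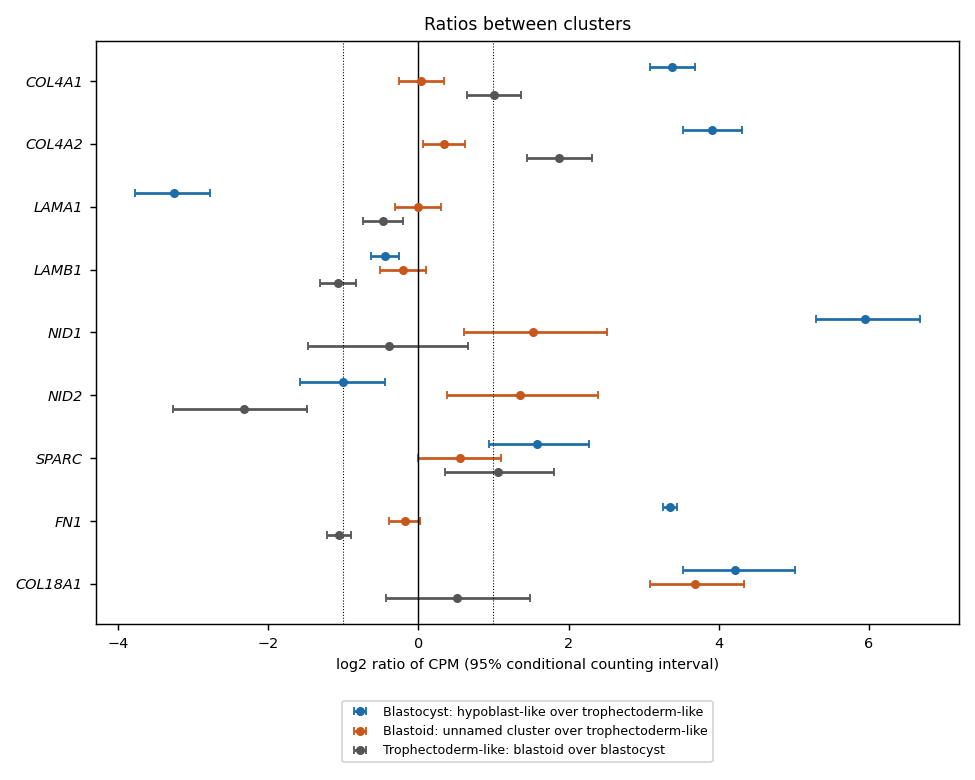
Points are log2 ratios of CPM for the 9 genes in 3 comparisons, with 95% conditional counting intervals; dotted lines mark 2-fold. In the blastocyst (blue) 6 genes lie right of 1, whereas in the blastoid (orange) COL18A1 is far to the right and COL4A1, LAMA1, LAMB1 and FN1 lie near 0.

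The FN1 count of the blastoid's trophectoderm-like cluster came from few nuclei. Its 5 highest nuclei held 69.6% of the 471 FN1 UMIs, up to 127 in 1 nucleus, where the 5 highest of the blastocyst's trophectoderm-like cluster held 22.6%. A gate on transcription factors and a receptor of the hypoblast (GATA4, HNF4A, SOX17 and PDGFRA, at least 2 UMIs and more than GATA2, GATA3 and TFAP2A) picked 13 blastoid barcodes, of which 7 lay in the unnamed, 5 in the trophectoderm-like and 1 in the ribosomal-rich cluster. The gate uses none of the 9 genes. Doublets among the 13 were screened only by Scrublet, which scores barcodes against simulated pairs, and the part of mixed barcodes in their values was not tested.

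These 13 barcodes held 2.69% of the library's UMIs and 24.1% of its FN1 UMIs. Their FN1 counts ran from 0 to 127 with a median of 14, and 5 of the 13 had at least 20. Of all 6 blastoid barcodes with at least 20 FN1 UMIs, 5 were among the 13. The 5 gated barcodes of the trophectoderm-like cluster held 67.7% of its FN1 and 3.87% of its UMIs.

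**Figure D4:**
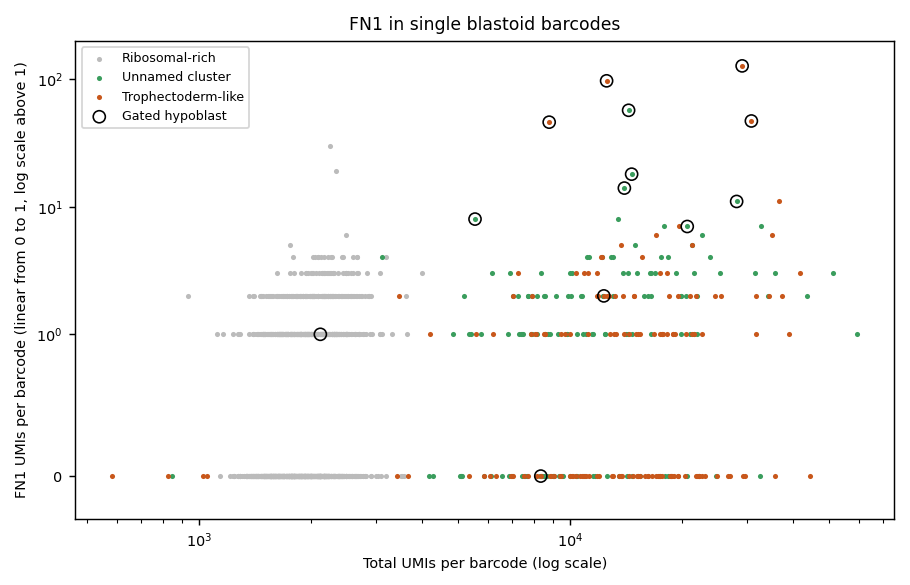
Each point is 1 of 1914 blastoid barcodes, placed by total UMIs (log axis) and FN1 UMIs (linear from 0 to 1, log above), coloured by cluster; open circles mark the 13 barcodes gated as hypoblast. Of the 6 barcodes with at least 20 FN1 UMIs, 5 are circled.

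Without the 13 barcodes, which were set apart after the values had been seen, FN1 in the blastoid's trophectoderm-like cluster fell from 195 to 65.4 CPM (55.4 to 76.6). The difference from the blastocyst's trophectoderm-like cluster then widened from 2.08-fold (1.86 to 2.32) to 6.18-fold lower (5.21 to 7.39). In the unnamed cluster FN1 fell from 172 to 118 CPM (102 to 135), and the ratio of unnamed to trophectoderm-like moved from 0.881 (0.763 to 1.02) to 1.80 (1.45 to 2.23). COL4A1 between the trophectoderm-like clusters was at 1.87 times (1.46 to 2.41) without the 13 barcodes, no longer past 2-fold. In both comparisons between libraries, barcodes were taken out of the blastoid side only. The gated ones held 67.7% of the FN1 of the blastoid's trophectoderm-like cluster, so the wider FN1 difference was fixed in advance. With trophectoderm barcodes picked by the marker gate in both libraries, FN1 was at 90.5 CPM (80.1 to 102) in the blastoid and 445 CPM (418 to 472) in the blastocyst.

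The 13 barcodes were then set beside the 436 blastocyst nuclei that pass the same gate. The hypoblast-like cluster held 389 nuclei, so some of the 436 lay outside it. HNF4A, a gate gene, was also among the markers raised in the epiblast-like cluster. Some hypoblast genes themselves differed between these groups. GATA6, which the gate does not use, was 7.22-fold lower (4.92 to 11.1) in the blastoid barcodes. Of the gate's own genes PDGFRA was 5.88-fold lower (3.35 to 11.4) and GATA4 was 5.52-fold higher (3.66 to 8.14). HNF4A, with the most UMIs of them, had a ratio of 0.614 (0.479 to 0.775) and was not past 2-fold. SOX17 had 0 against 40 UMIs, with an interval of the ratio that reached 1.88, so it showed no difference. Of 7 members with at least 100 UMIs, NID1 was lower and the other 6 passed in neither direction, with a median log2 ratio of -0.57; of 6977 genes, 10.1% were higher and 26.6% lower. NID1 was at 39.7 CPM (8 UMIs) against 481 CPM, 12.1-fold lower (6.14 to 28.1). FN1 was at 2158 CPM against 3797 CPM, a ratio of 0.568 (0.516 to 0.625), and COL4A1 at 238 CPM against 415 CPM, a ratio of 0.574 (0.422 to 0.765). COL18A1, with 198 against 142 CPM, had a ratio of 1.40 (0.987 to 1.93).

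Summed over the gated barcodes, LAMA1, LAMB1, LAMC1, NID2 and SPARC were at higher levels in the blastoid, though single barcodes held much of some sums. LAMA1 was at 134 CPM (27 UMIs) in the 13 blastoid barcodes and at 13.5 CPM (53 UMIs) in the blastocyst's, a ratio of 9.92 (6.00 to 16.1), though with 80 UMIs in all it is under the minimum for a call. LAMC1 was 2.14-fold higher (1.41 to 3.15). LAMB1 was at 1.45 times (1.02 to 2.00) on 40 UMIs in the blastoid, of which 1 barcode held 20. The same barcode held 8 of the 27 LAMA1 UMIs. NID2 was at 3.19 times (1.46 to 6.28) on 10 against 61 UMIs, but 1 blastoid barcode held 9 of the 10. SPARC was at 1.91 times (1.04 to 3.25). These intervals do not cover the spread between barcodes, so the NID2 and LAMB1 ratios rest largely on 1 barcode each. AFP, with 38 UMIs, and APOB, with 33, were present in the blastoid barcodes and at 0 in the 436 blastocyst nuclei. The gated blastoid barcodes also differed among themselves. The highest FN1 shares, 7725, 5232 and 4362 CPM, were in barcodes of the trophectoderm-like cluster, all with 0 UMIs of NID1 and COL18A1.

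Detection per nucleus was compared after thinning every barcode to 2000 UMIs and leaving out shallower ones (7 hypoblast-like, 3 trophectoderm-like, 0 epiblast-like and 64 shallow nuclei in the blastocyst; 4 trophectoderm-like, 1 unnamed and 936 ribosomal-rich barcodes in the blastoid). FN1 was then seen in 98.4% (96.6% to 99.4%) of hypoblast-like and 46.8% (40.2% to 53.4%) of trophectoderm-like blastocyst nuclei, and in 15.3% (9.98% to 22.1%) of trophectoderm-like blastoid nuclei. Unthinned, the same shares were 99.7%, 82.6% and 50.6%. NID1 was seen in 50.5% (45.4% to 55.6%) of hypoblast-like and 1.29% (0.266% to 3.72%) of trophectoderm-like blastocyst nuclei, whose median depths before thinning were 7665 and 8776 UMIs. LAMA1 was seen in 1.57% (0.579% to 3.39%) and 18.5% (13.7% to 24.0%) of the same clusters, and in 0 of 73 epiblast-like nuclei. A floor of 3 nuclei is 4.11% of them, and the 95% interval for nuclei with a LAMA1 UMI at this depth reaches 4.93%. Neither is a limit on nuclei that express it, and 1.37% had a UMI before thinning.

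The number of members seen in 1 thinned nucleus also differed between clusters. At least 3 of the 9 were seen in 66.2% (61.3% to 71.0%) of hypoblast-like, 56.2% (44.1% to 67.8%) of epiblast-like, 30.8% (19.9% to 43.5%) of shallow and 6.87% (3.98% to 10.9%) of trophectoderm-like blastocyst nuclei. In the blastoid the shares were 13.6% (8.37% to 20.4%) of unnamed, 11.7% (9.40% to 14.4%) of ribosomal-rich and 4.0% (1.48% to 8.50%) of trophectoderm-like barcodes. The hypoblast-like and epiblast-like intervals overlapped, as did those of the blastoid's unnamed and trophectoderm-like clusters. No nucleus showed more than 7 of the 9.

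**Figure D5:**
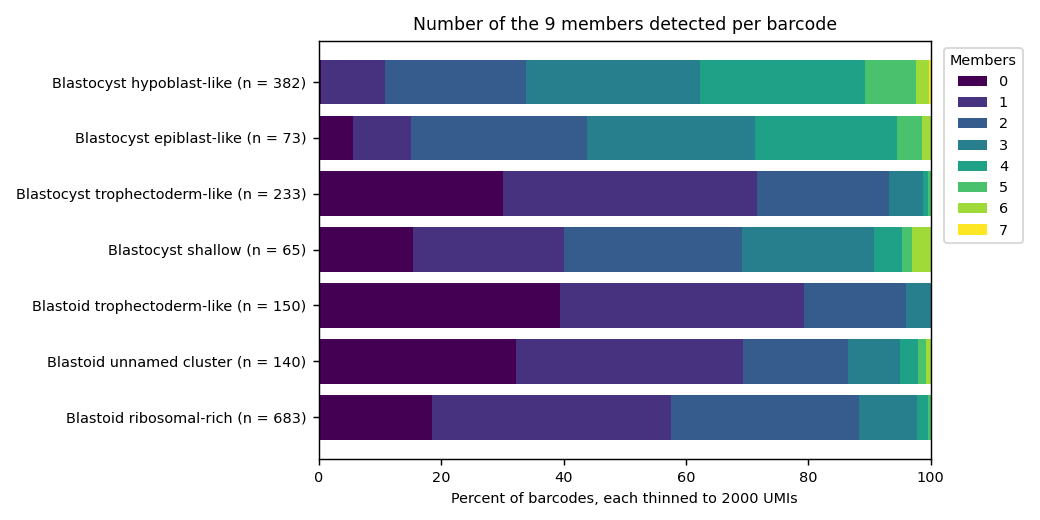
Bars give, for each cluster, the percent of barcodes thinned to 2000 UMIs in which 0 to 7 of the 9 genes were seen. The hypoblast-like cluster has 1 of 382 nuclei with no member, and the blastoid's trophectoderm-like cluster 59 of 150.

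Co-detection within clusters was weak. Of 252 pairs looked at (36 in each of 7 clusters), 1 had separate intervals at 2000 UMIs, NID1 with COL18A1 in the hypoblast-like cluster. COL18A1 was seen in 28.5% (22.2% to 35.4%) of 193 nuclei with NID1 and in 10.6% (6.58% to 15.9%) of 189 without it. In another random draw of the same depth the shares were 23.7% (17.9% to 30.3%) and 14.4% (9.68% to 20.2%), which overlap, and at 4000 UMIs they were 40.9% (34.5% to 47.5%) and 19.4% (12.8% to 27.4%). The direction was the same in each of these.

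The partner chains of type IV collagen, whose genes are neighbours in the RefSeq annotation with 0 genes between them, had overlapping shares at 2000 UMIs. COL4A2 was in 55.8% (48.9% to 62.6%) of hypoblast-like nuclei with COL4A1 and in 42.5% (34.9% to 50.4%) of those without it. At 4000 UMIs the shares were 77.9% (72.4% to 82.8%) and 58.2% (47.4% to 68.5%), and no longer overlapped, while in another random draw at 2000 UMIs they were 49.8% (42.8% to 56.7%) and 44.5% (37.0% to 52.2%). LAMB1 was in 34.9% (21.0% to 50.9%) of trophectoderm-like blastocyst nuclei with LAMA1 and in 23.7% (17.8% to 30.4%) of those without it.

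Few receptors of these proteins passed 2-fold between the blastocyst clusters. Of 18 listed, 10 were tested, with 1 higher and 2 lower in the hypoblast-like cluster and a median log2 ratio of -0.39. These counts lie near the shares over all genes, 13.1% higher and 11.6% lower. ITGA2, the alpha chain of a collagen-binding integrin, was 9.51-fold higher (6.22 to 15.2), at 93.4 against 9.82 CPM. DAG1 (dystroglycan) was 7.54-fold lower (6.23 to 9.19) and BCAM 5.11-fold lower (3.63 to 7.33); both bind laminin alpha chains. ITGB1, the shared beta chain, was at 114 and 141 CPM. In the blastoid, ITGA2 and DAG1 again differed between the unnamed and trophectoderm-like clusters, at 91.1 against 14.5 CPM and 60.0 against 238 CPM.

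Other matrix genes differed in both directions between the unnamed and trophectoderm-like clusters of the blastoid. Of 13 other basement membrane components 7 were tested, with 4 higher and 1 lower in the unnamed cluster and a median log2 ratio of 1.06, beside 15.7% higher and 16.3% lower over all genes. FRAS1, of the Fraser complex that anchors embryonic epithelia, was at 550 CPM (517 to 585) against 47.5 CPM, and SMOC1 at 64.8 CPM (123 UMIs) against 2.89 CPM (7 UMIs). The component that was lower was HSPG2 (perlecan), 2.31-fold (1.80 to 2.99), and of 3 laminin chains tested LAMA5 was lower, with a log2 ratio of -1.11. Of 12 receptors tested there, 3 were higher and 4 lower, with a median log2 ratio of -0.36. The integrin chains ITGB8 and ITGA8 were 15.5-fold (10.9 to 22.8) and 13.4-fold (6.99 to 28.7) higher, with ITGA2. ITGA6 was 2.65-fold lower (2.08 to 3.41), BCAM 2.30-fold lower (1.83 to 2.89) and SDC4 2.01-fold lower (1.35 to 3.04), with DAG1. Of the collagen folding genes, PLOD2 was lower, with a log2 ratio of -1.61, and P3H1 and SERPINH1 were higher, with 2.14 and 1.22. FREM1, another Fraser complex gene, was 2.08-fold higher (1.44 to 3.03) in the unnamed cluster, and in the blastocyst 12.9-fold lower (7.71 to 23.2) in the hypoblast-like than in the trophectoderm-like cluster.

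Between the trophectoderm-like clusters of the libraries, 1 of 7 collagen folding genes tested was higher in the blastoid and 1 lower, 0 of 2 remodelling genes was higher and 1 lower, and 2 of 9 receptors were higher and 1 lower. Over all genes 13.5% were higher and 11.6% lower. PLOD2, a lysyl hydroxylase of collagen, was at 310 CPM (288 to 333) in the blastoid and 18.4 CPM (13.3 to 24.7) in the blastocyst, a 16.9-fold difference (12.4 to 23.5), and P4HA2, a subunit of collagen prolyl hydroxylase, was 2.62-fold lower (1.92 to 3.61) in the blastoid. The inhibitor of metalloproteinases TIMP3 was 4.97-fold lower (3.64 to 6.91) in the blastoid. ITGA6, an alpha chain of laminin-binding integrins, was 3.13-fold higher (2.46 to 4.0), ITGAV was higher with a log2 ratio of 1.18, and ITGA5, of the main fibronectin receptor, was 2.15-fold lower (1.73 to 2.68). Over the whole libraries 4 of 7 remodelling genes tested were higher in the blastoid and 1, TIMP3, lower, with a log2 ratio of -2.64, beside 21.0% higher and 18.0% lower of all genes. MMP2, which cleaves type IV collagen, was counted 201 times in blastoid and 2 times in blastocyst barcodes, a ratio of 92.2 (25.2 to 766).

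Of the interstitial matrix genes, 2 of 12 had at least 100 UMIs over the libraries and both were higher in the blastoid, where 21.0% of all genes tested were higher and 18.0% lower. COL5A1 was counted 128 times in blastoid and 5 times in blastocyst barcodes. The fibroblast collagens had too few UMIs for a call, among them COL1A1 at 51 and 27 UMIs and COL3A1 at 13 and 1.

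Across 753 thinned blastocyst nuclei, the genes whose counts ran most like the summed counts of the 9 were GPCPD1 (Spearman rho 0.63), TMEM132D (0.61), TANC2 (0.59), HDAC8, B3GALT1, SLC4A7, IL6ST and AKAP12 (0.51), of 5748 genes looked at. These nuclei share 1 library and hold all clusters, so the values describe differences between clusters as well as within them. FN1 made up 68.9% of the summed UMIs of the 9 in the blastocyst, so it weighs most in that sum. In the blastoid the highest rho over 973 thinned barcodes, 683 of them ribosomal-rich, was 0.19 (MDK). RPL7A, RPS13, RPLP1, RPS19 and RPS18, all ribosomal protein genes, were also among the 8 highest. At 4000 UMIs, with 286 barcodes, the 8 were different genes and the highest rho was 0.28 (PHACTR2).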

How the data were processed

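The deposited files hold whole-number UMI counts per gene and barcode, made by the authors with Cell Ranger; the file headers give version 7.2.0, while the submitters' processing notes name 7.1.0, with Seurat 4.3.0. The genome build and annotation are not given in the sources used here. Barcodes with at least 500 genes and under 10% mitochondrial UMIs were kept (1944 and 833), and those with the highest Scrublet doublet scores were removed, at 0.8% per 1000 barcodes (30 and 6). Each library was clustered on its own with scanpy 1.11.5 and leidenalg 0.10.2 (2000 variable genes, 30 components, resolution 0.5), leaving out the 9 members, the 77 panel genes and the cell type markers.

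A cluster took the name of the class with at least 3 markers, and more than any other class, counting only markers with 100 or more UMIs per library and a CPM 1.5-fold above the other clusters. Over 5% ribosomal protein UMIs made it ribosomal-rich, and a median under the library's divided by 3 made it shallow. These naming limits were set after the data had been seen, and the class borders depend on them. The members, lists and comparisons were chosen with earlier results of these data known.

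Counts were summed per cluster. CPM have exact Poisson intervals, ratios exact conditional intervals and shares Clopper-Pearson intervals, at 95%. A gene was called higher or lower past 2-fold if its UMIs in the 2 sums reached 100; sums under 3 were set to 3 for calls and medians. The rule for named genes took the 9 members, the panel genes past 2-fold (up to 4 a direction in each panel) and the 8 genes most like the members. The panel genes printed are a selection from that rule, with some others given for their level; that selection and the gated barcodes were picked after values were seen. The script was tested on simulated data. No sequences or coordinates are given here. Symbols of all 9 members were found in the RefSeq table of assembly ARS-UCD2.0, used only for which genes are neighbours.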

Additional observations from a re-analysis of the deposited data

Results flagged for a closer look

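The NID2 ratios lay on opposite sides of 1 in the libraries. Its ratio of the unnamed over the trophectoderm-like cluster in the blastoid was 2.55 (1.30 to 5.23), on 28 and 14 UMIs (1.89, 0.888 to 4.17, without the 13 hypoblast-gated barcodes, 1 of which held 9 of the 28), and its ratio of the hypoblast-like over the trophectoderm-like cluster in the blastocyst was 0.497 (0.335 to 0.732), on 47 and 68 UMIs. The difference between the libraries was not tested, since each has 1 library, and the non-trophectoderm clusters compared are not of the same name.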

How the results depend on the processing

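Over all settings tried, 469 log2 ratios of members stayed within their counting interval, 52 moved further, and 1 that was past 2-fold changed sign, that of SPARC over the whole libraries (-0.18 with at least 4000 UMIs). Ratios not called also changed sign, among them FN1 in the unnamed over the trophectoderm-like cluster (-0.22 to 0.85) and, in the epiblast-like over the hypoblast-like cluster, COL18A1 (-0.87 to 0.27) and LAMA1 (-1.72 to 0.23). Members higher over 2-fold in the blastoid library numbered 0 with at least 1000 genes or at least 4000 UMIs, and members lower numbered 3 when scaled by the median ratio. In the hypoblast-like over the trophectoderm-like cluster, members lower numbered 1 with at least 1000 genes, under 5% mitochondrial UMIs, no doublet removal, at least 4000 UMIs, resolution 1.0 and the marker gate, in each of which LAMA1 was lower. In the epiblast-like over the hypoblast-like cluster, members higher numbered 0 with at least 1000 genes, under 5% mitochondrial UMIs, at least 4000 UMIs and resolution 0.3, and members lower numbered 3 with at least 4000 UMIs, 1 with resolution 0.3, 1 with a minimum of 30 UMIs and 2 past 1.5-fold. These class borders moved: the hypoblast-like cluster held 227 nuclei with at least 1000 genes, 157 under 5% mitochondrial UMIs, 72 with at least 4000 UMIs and 142 at resolution 1.0, with 336, 330 and 237 nuclei unnamed in the later settings. Between the trophectoderm-like clusters, members lower numbered 1 with at least 1000 genes, under 5% mitochondrial UMIs, at least 4000 UMIs, resolution 0.3 and resolution 1.0, in each of which FN1 was not past 2-fold, and members higher numbered 1 without doublet removal and 1 without the 13 gated barcodes; with the marker gate they numbered 2, but COL4A1 (0.95) was not past 2-fold and COL18A1 (2.20) was. In the unnamed over the trophectoderm-like cluster, members higher numbered 3 with a minimum of 30 UMIs. In the ribosomal-rich barcodes, members higher numbered 2 with ribosomal protein and mitochondrial UMIs left out of the total, 2 without the gated barcodes and 3 past 1.5-fold, and members lower 2 past 1.5-fold; with at least 4000 UMIs that cluster did not form. The cause of these moves was not tested beyond the change each setting makes.

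Shares of nuclei followed the depth they were thinned to. At least 3 members were seen in 35.4% (1000 UMIs), 89.8% (4000 UMIs) and 95.1% (not thinned) of hypoblast-like nuclei, in 1.27%, 28.0% and 55.5% of trophectoderm-like blastocyst nuclei, in 1.32%, 17.7% and 70.8% of trophectoderm-like blastoid nuclei and in 0.714%, 33.1% and 80.9% of unnamed blastoid nuclei. Both COL4A1 and COL4A2 were seen in 9.82%, 57.9% and 74.3% of hypoblast-like nuclei at the same depths, against 31.4% at 2000 UMIs. At 4000 UMIs and not thinned the shares were 10.2% and 40.9% in the blastoid's trophectoderm-like cluster and 12.9% and 46.1% in its unnamed cluster, and 7.63% of trophectoderm-like blastocyst nuclei had both when not thinned. In another random draw 1.43% of unnamed blastoid nuclei had both, against 4.29%. No paired analysis was possible because each group has 1 library, so no replicate could be left out either. In the blastoid, NID1 and NID2 had 81 and 66 UMIs, which limits any difference between its clusters.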
